A study of Homo sapiens with 4 samples.

Results

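The mitochondrial genome, written chrM in the deposited table, gave 378 of the 9405 back-splice junctions that had at least 1 junction read in the 4 libraries. A back-splice junction is the point where a downstream base of an RNA is joined to an upstream one, as in a circular RNA (circRNA), and it is named here by its lower coordinate, its upper coordinate and its listed strand. The words from, into and start run below from the lower to the upper coordinate and give no direction of transcription. The members were chosen by position alone, as every chrM junction with a read, and none of them carried a circBase identifier (circBase is a catalogue of known circRNAs).

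The irradiated libraries, B1 and B2, came from exosomes of pancreatic cancer cells given 10 Gy of x-rays, and the control libraries, A1 and A2, from exosomes of the same kind of cells without irradiation. Exosomes are small vesicles that cells release, purified here from the culture medium by ultracentrifugation, and their total RNA was sequenced after removal of rRNA with a kit that keeps the strand. All 4 libraries carry the names of the same 4 cell lines (BxPC-3, MIA PaCa-2, PANC-1 and SW1990), so the line behind a library could not be resolved, and no source says that libraries of a group were separate cultures. Junction reads hold no marker genes by which the labelled source could be checked. Values of B2 are those of the column with that name. The table has another column, B3, which matches no sample and stands in place of B2 in the study's list of changed circRNAs. The study's circRNA numbers equal those of columns A1 (2052) and A2 (2485) and nearly equal that of B1 (3492). Its number for B2 is larger than the 1861 of column B2. Column B2 may thus not be the library the study calls its second irradiated one, and each B2 value below carries this doubt. The p-values below therefore measure the spread between these samples, which may be technical. In bulk exosome RNA, fewer vesicles that carry mitochondrial RNA and less of this RNA in each vesicle cannot be told apart.

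The mitochondrial genome is a small DNA circle with no introns. Both of its strands are transcribed into long precursors, from which the tRNAs that lie between the other genes are cut out, and this frees the 2 rRNAs and the messenger RNAs. The proteins it encodes are subunits of the respiratory chain: NADH dehydrogenase (complex I, the MT-ND genes), cytochrome b of complex III (MT-CYB), cytochrome c oxidase (complex IV, the MT-CO genes) and ATP synthase (complex V, MT-ATP6 and MT-ATP8). MT-ND6 is the protein gene encoded on the minus strand, between MT-ND5 and MT-CYB on the plus strand. The D-loop is the control region that holds the promoters and an origin of replication.

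For one junction, chrM:14131-15754, which reaches from MT-ND5 across MT-ND6 into MT-CYB, the study designed a pair of PCR primers, printed because they are the sequences with which this junction can be amplified. The same pair served the plus and the minus listing of this junction, with the forward and reverse names swapped. Both are written 5′ to 3′ in lower case, with no part in capitals, and were matched by a script to chrM of GRCh37.

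Primer in MT-ND6, chrM:14271-14290 on the minus strand: aggagaggggtcagggttga
Primer in MT-CYB, chrM:15731-15750 on the plus strand: gccgcagacctcctcattct

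The primer in MT-ND6 reads toward the lower end of the junction and the one in MT-CYB toward its upper end, so on a linear template they point away from each other. Its 2 listings, one for each strand, are described with their reads below.

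The chrM positions of the table did not follow GRCh37. Junction callers usually keep joints flanked by the AG and GT bases of nuclear splice sites, read on either strand, and this motif was found at 0 of the 324 junctions with both ends from 3200 to 16000 when the printed positions were used as they stand. With both ends moved 1 base down it was found at 324 of 324, where the next best shift gave 46. Below position 3000 a move of 2 bases gave 17 of 17. The UCSC build hg19, which the authors named, carries an older chrM sequence than GRCh37, and no copy of it was used here, so junction sequences are not printed. Positions below are those of the table, and genes are those of GENCODE on GRCh37. The offset moves few ends between genes, since 7 of 756 ends lay within 2 bases of a gene boundary.

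The junctions lay over nearly the whole circle but not evenly. The lowest position was 341 and the highest 16512 of a genome of 16569 bases in GRCh37. The stretch from 14001 to 15000, which holds the last part of MT-ND5, MT-ND6 and the first part of MT-CYB, had the lower end of 62 junctions (16.4%) and the upper end of 69 (18.3%). The 62 junctions took 50.0% of all 2790 chrM reads. By library this share was 72.5% in B1 and 72.2% in B2 (irradiated), and 44.3% in A1 and 54.7% in A2 (control), so both irradiated libraries lay above both control libraries.

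**Figure D1:**
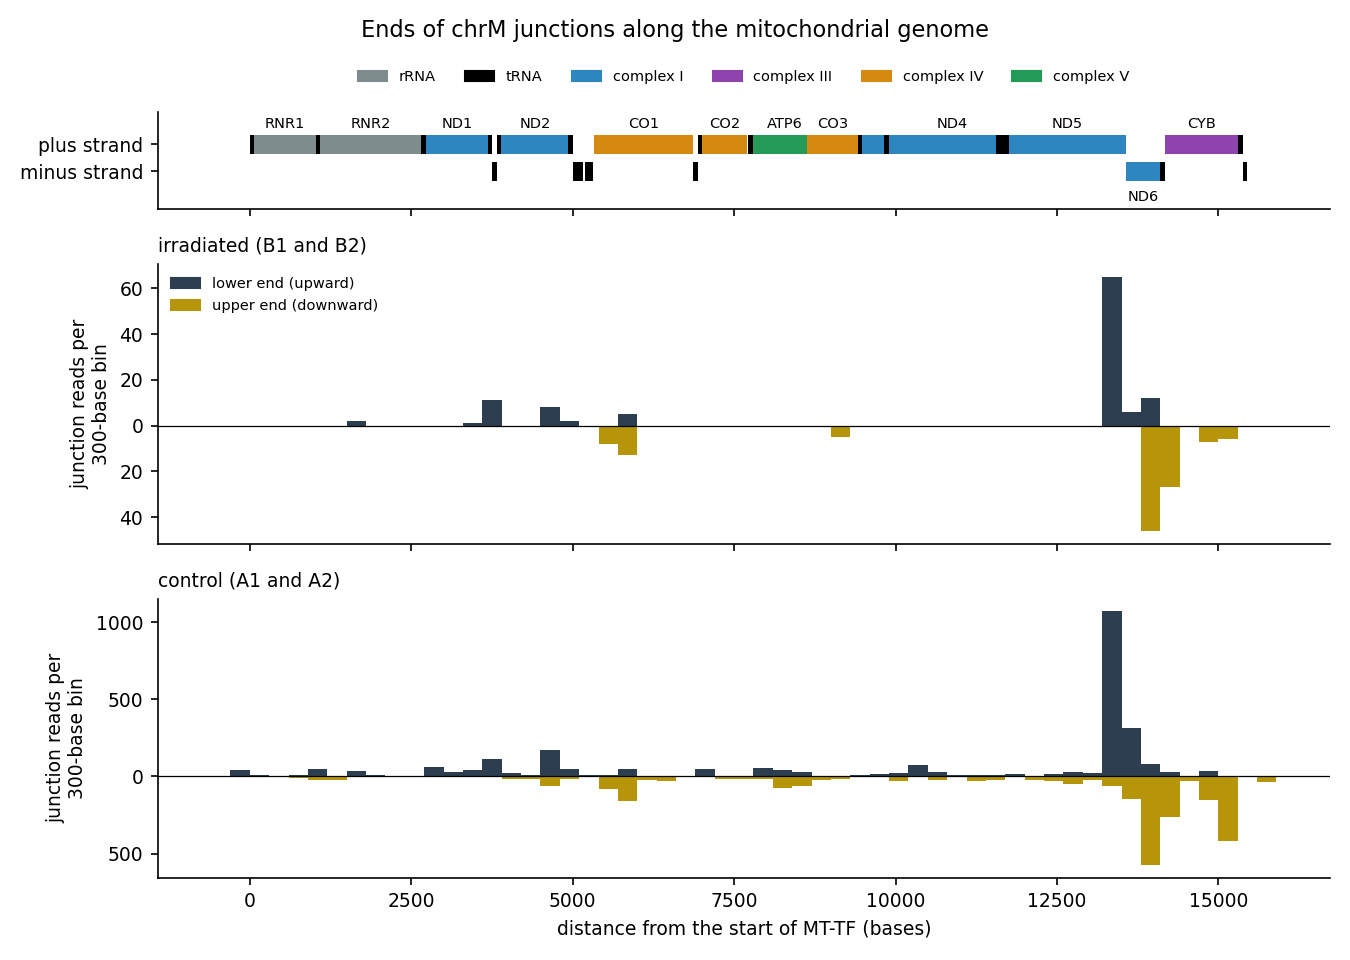
Junction reads along the mitochondrial genome, summed over the 2 irradiated libraries (middle) and the 2 control libraries (bottom) in bins of 300 bases, with the lower ends of the junctions drawn upward and the upper ends downward, on read axes of different scale. The top strip shows the genes by strand and class; in both groups the tallest lower-end bar lies at the end of MT-ND5 and the tallest upper-end bar in MT-ND6.

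Complex I genes took most lower ends. Of the 378 junctions, 266 (70.4%) had their lower end in a complex I gene, a class that makes up 38.3% of the genome, which is 41.9 junctions per kb. These 266 held 82.8% of the reads. As a share of the chrM reads of each library, lower ends in complex I made up 87.5% (95% Wilson interval 73.9 to 94.5) in irradiated B1 and 97.2% (90.4 to 99.2) in irradiated B2, and 81.0% (78.9 to 82.9) in control A1 and 83.8% (81.7 to 85.8) in control A2. The irradiated mean was 92.4% ± 6.87 and the control mean 82.4% ± 2.00 (SD, n = 2 each). The groups did not overlap, but an exact two-sided permutation test over libraries gave p = 0.333, the smallest that 2 against 2 libraries allow, and 0.533 after adjustment over the 8 region classes. For upper ends the complex I share went the other way, with a mean of 38.6% ± 12.2 in irradiated and 44.3% ± 5.44 in control libraries, which overlapped (exact permutation p = 0.667). Intervals and limits from reads cover counting error only.

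Within complex I, the subunit genes differed in which end they held. Which end a gene can hold depends partly on its place in the numbering, for every class described here. No count or share of ends was corrected for this. MT-ND5, one of the large membrane subunits, had 86 lower ends with 1478 reads and 60 upper ends with 199 reads. MT-ND6 had 20 lower ends with 153 reads and 34 upper ends with 769 reads, or 103 ends of either kind per kb. MT-ND1, MT-ND2 and MT-ND4 had 45, 58 and 42 lower ends, and 4, 28 and 25 upper ends. The smaller subunit genes MT-ND3 and MT-ND4L had 8 and 7 lower ends, with 22 and 23 reads, and no irradiated read at either end.

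The reads of MT-ND5 and MT-ND6 were seen in both groups. Lower ends in MT-ND5 had 20 (B1) and 51 (B2) reads in irradiated libraries, and 727 (A1) and 680 (A2) in control libraries. Upper ends in MT-ND6 had 12 and 34 reads in B1 and B2, and 316 and 407 in A1 and A2. Junctions from MT-ND5 into MT-ND6 were the gene pair with the most reads, 750 over 28 junctions, followed by MT-ND5 into MT-CYB with 652 over 36. In all, 118 junctions (31.2%) spanned at least 1 base of MT-ND6 and held 1659 reads, which is 72.5% of the chrM reads in irradiated B1 and 79.2% in irradiated B2, while control A1 had 55.3% and control A2 62.9%.

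Complex III was mainly an upper end. MT-CYB, its one mitochondrial subunit, held 82 upper ends (21.7%) and 14 lower ends (3.70%), on 6.89% of the genome. MT-CYB lies late in the numbering, which leaves few positions above a lower end. It held both ends of 13 of the 14 junctions that start there. As an upper end it took 42.5% of the chrM reads in B1 and 31.9% in B2 (irradiated), and 33.7% in A1 and 30.6% in A2 (control), so the groups overlapped. As a lower end it took 0 of 40 and 0 of 72 reads in B1 and B2, and 30 and 40 reads in A1 and A2. A count of 0 allows a share of up to 7.50% in B1 and 4.17% in B2, above the 2.06% in A1 and 3.27% in A2, so absence from the irradiated libraries was not detectable at this depth.

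Complex IV and V genes, which lie in the middle of the plus strand, held 22 and 31 lower ends and 65 and 32 upper ends. MT-CO1, the catalytic subunit of complex IV, had 46 of those upper ends with 311 reads, of which B1 had 6, B2 15, A1 160 and A2 130. MT-CO2 and MT-CO3, the other core subunits, had 7 and 12 upper ends. For the share of reads with an upper end in complex IV, both irradiated libraries (27.5% and 20.8%) lay above both control libraries (14.2% and 12.4%), with exact permutation p = 0.333. The ATP synthase genes MT-ATP8 and MT-ATP6 had 7 and 24 lower ends, all with control reads alone (60 in A1 and 62 in A2). These are 4.13% and 5.06% of the chrM reads of A1 and A2, while a count of 0 allows up to 7.50% in B1 and 4.17% in B2. Their absence from the irradiated libraries was thus near the limit of detection. Per kb complex V had 36.8 lower and 38.0 upper ends, next to complex I in the density of lower ends.

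**Figure D2:**
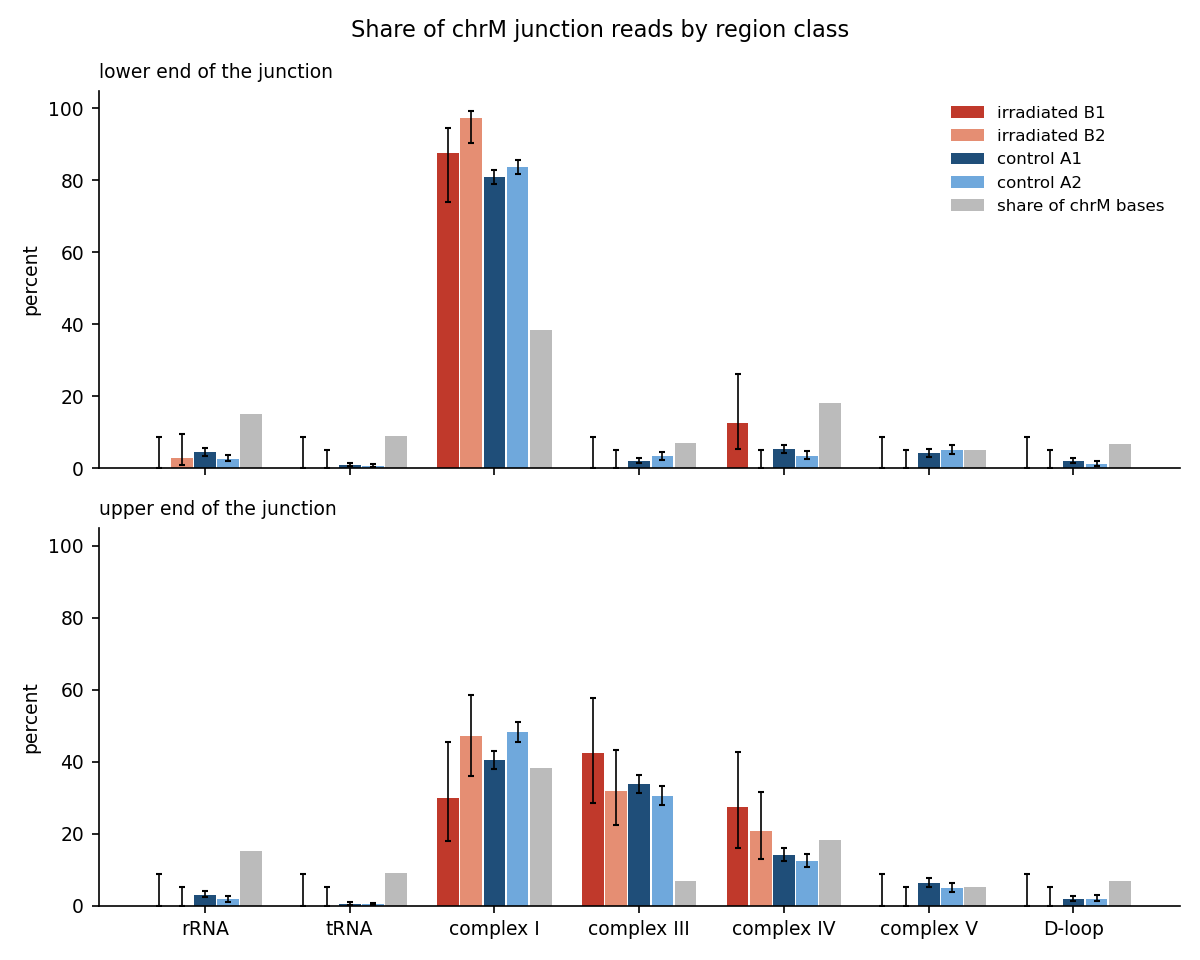
Percent of the chrM junction reads of each library whose lower end (top) or upper end (bottom) lies in each region class, for B1 and B2 (irradiated) and A1 and A2 (control), with 95% Wilson intervals as error bars and the share of chrM bases in grey. Complex I takes 81.0% to 97.2% of lower ends, and complex III takes 30.6% to 42.5% of upper ends on 6.89% of the bases. Shares were not corrected for place in the numbering, where late genes leave few positions above a lower end.

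Ends in rRNA and tRNA genes were few for the bases these genes take up. The 2 rRNA genes, MT-RNR1 of the small and MT-RNR2 of the large ribosomal subunit, make up 15.2% of the genome and had 29 lower and 17 upper ends (7.67% and 4.50%). MT-RNR2 had 26 and 13 of these, and MT-RNR1 had 3 and 4. Reads of junctions with an rRNA end numbered 0 and 2 in B1 and B2, and 93 and 45 in A1 and A2. rRNA had been removed from these samples, and what that removal did to junction reads in MT-RNR1 and MT-RNR2 was not tested. The 22 tRNA genes make up 9.08% of the genome, and 16 of them had no end at all. The other 6 had 4 lower and 3 upper ends together, with 19 and 10 reads in A1 and A2 and none in B1 or B2. Ends also did not gather at gene borders, where tRNAs are cut out: 27 of 756 ends (3.57%) lay within 10 bases of a gene boundary, against 5.62% of all chrM positions.

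The D-loop held an end of 24 junctions with 89 reads, 0 in B1 and B2, 51 in A1 and 38 in A2. chrM:497-1716+, from the D-loop into MT-RNR2, had the most reads (11 in A1 and 1 in A2). chrM:14056-16359-, from MT-ND5 into the D-loop, had 3 in A1 and 7 in A2. chrM:555-1235-, from the D-loop into MT-RNR1, had 2 in A1 and 4 in A2, and chrM:14307-16505+, from MT-ND6, had 6 in A2 alone. None of these 4 had a read in an irradiated library. As a lower or an upper end, the D-loop took at most 2.00% of the chrM reads of a control library, and tRNA genes at most 0.895%. Both lie below the 7.50% and 4.17% that a count of 0 allows in B1 and B2, so absence was not detectable.

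Spans ranged widely. The span, counted from the lower to the upper end, had a median of 1280 bases over the 378 junctions (quartiles 480.5 and 2583.25, range 151 to 15729), and 856 when weighted by reads. By library the median was 362.5 over the 8 junctions of B1 and 1010 over the 15 of B2, against 1178 over the 274 of A1 and 1249 over the 187 of A2. Both irradiated medians were below both control medians, on few junctions, and the 2 irradiated values differed by more than B2 and the controls did. Junctions on nuclear chromosomes with no circBase identifier had a median of 571 bases, but the 651 of them that the table calls sense overlapping had a median of 1281. This is also the category of 255 chrM junctions, whose median alone was not taken. The predicted circRNA length in the table equalled the span for all 378, so no part of the span had been taken out as an intron.

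Most junctions joined different genes. The 2 ends lay in 1 gene for 78 junctions (20.6%), which held 184 reads in A1, 118 in A2 and none in B1 or B2, while 300 touched more than 1 gene, with a median of 4 genes and at most 37. Spans under 500 bases made up 98 junctions (25.9%), and spans of 5000 bases or more 47 (12.4%) with 154 reads. Among junctions with at least 5 reads, the shortest were chrM:14056-14263- and chrM:14056-14263+ of 208 bases and chrM:14056-14286- of 231 bases, all from MT-ND5 into MT-ND6. The longest were chrM:594-15740- of 15147 bases, chrM:2227-14024- of 11798 bases and chrM:3791-13449+ of 9659 bases, with 6, 5 and 5 reads, all in A1.

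**Figure D3:**
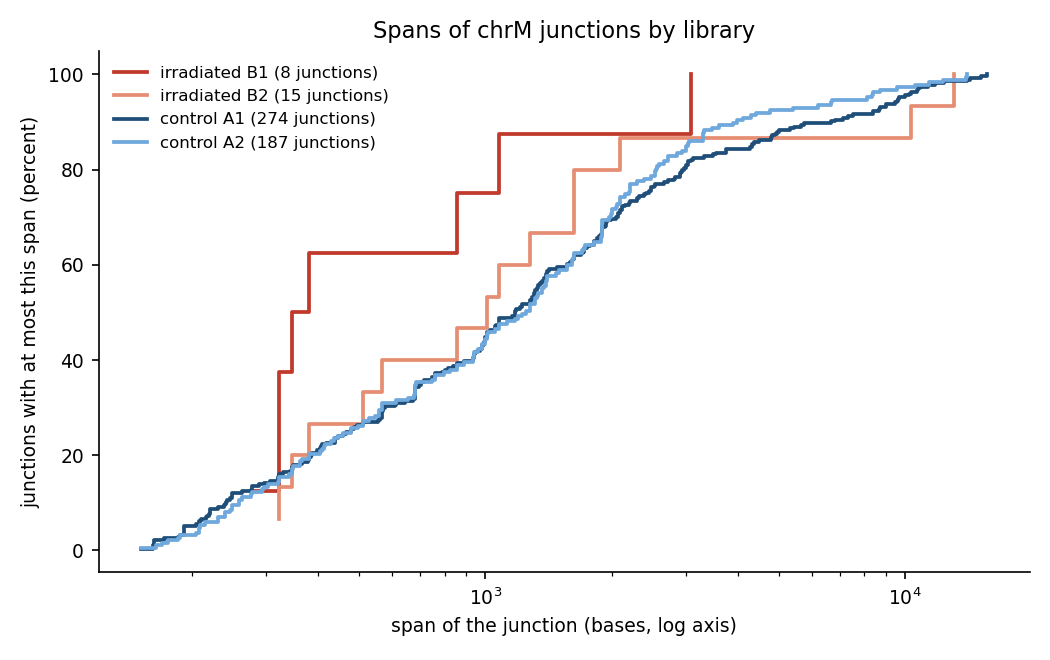
Cumulative percent of the chrM junctions of each library by span in bases, on a log axis, for B1 and B2 (irradiated) and A1 and A2 (control), each junction counted once. The curves of A1 and A2 run close together with medians of 1178 and 1249 bases, that of B1 (8 junctions) lies to the left with a median of 362.5, and that of B2 (15 junctions) has a median of 1010.

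Many junctions shared an end. The 378 junctions used 205 lower and 204 upper positions, of which 129 and 121 served 1 junction each. The lower position with the most junctions was 14068 in MT-ND5, with 14 junctions to 8 upper positions, followed by 14056, 12 bases away in the same gene, with 11. Junctions of these 2 starts numbered 25 and held 33.9% of chrM reads, which was 50.0% in B1 and 59.7% in B2 (irradiated), and 26.4% in A1 and 40.7% in A2 (control). Position 14068 alone had 12 and 18 reads in B1 and B2, and 232 and 226 in A1 and A2. Position 14056 had 8 and 25 reads in B1 and B2, and 151 and 273 in A1 and A2. Both starts were thus read in all 4 libraries.

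The next lower positions were 13856 in MT-ND5 and 2227 in MT-RNR2 with 7 junctions each, then 5370 in MT-ND2 and 10905 in MT-ND4 with 6 each, a count that 4108 in MT-ND1 and 14808 in MT-CYB also reached. None of these 6 had an irradiated read. The start 2227 in MT-RNR2 reached far, with spans of 6215 to 11798 bases.

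Among upper positions, 15740 in MT-CYB had 9 junctions, 15754 in MT-CYB and 14413 in MT-ND6 had 8, 9082 in MT-ATP6 had 7, and 12745 in MT-ND5 and 16288 in the D-loop had 6. The end 15754 had 0 and 6 reads in B1 and B2, and 197 and 74 in A1 and A2. The end 14413 had 2 and 11 in B1 and B2, and 95 and 107 in A1 and A2. The remaining 4 ends had control reads alone. At 39 positions the upper end of one junction was followed at the next base by the lower end of another.

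The same coordinates were often listed on both strands. Of the 378 junctions, 163 were listed on the plus and 215 on the minus strand, and 63 coordinate pairs were listed on both, so that 126 junctions (33.3%) had a partner on the opposite strand. These 126 held 68.9% of the chrM reads. The minus listing had more reads in 34 pairs, the plus listing in 21, and 8 were equal. A partner was most common for well-read junctions: it was found for 23.5% of 119 junctions with 1 or 2 reads, 22.7% of 141 with 3 or 4, 33.3% of 75 with 5 to 9, and 95.3% of 43 with 10 or more (95% Wilson interval 84.5 to 98.7). Nuclear junctions not in circBase had a partner in 6.32% of 6617 cases, and in 23.9% of 46 with 10 or more reads (13.9 to 37.9).

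**Figure D4:**
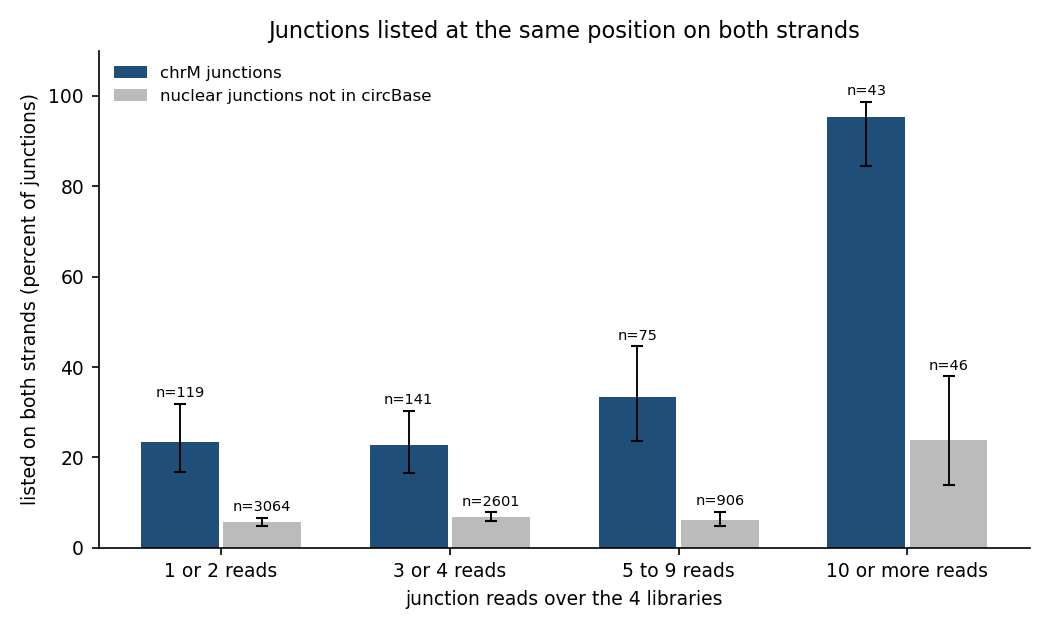
Percent of junctions that are listed with the same lower and upper end on both strands, by total junction reads over the 4 libraries, for chrM junctions (blue) and nuclear junctions not in circBase (grey), with 95% Wilson intervals and the number of junctions above each bar. The chrM bar stands above the nuclear one in each read class and reaches 95.3% at 10 or more reads.

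The AG and GT motif itself was found mostly on the minus strand, whichever strand was listed. It was found on the minus strand at 365 and on the plus strand at 8 of the 373 junctions that had it, and 159 of the 163 listed on the plus strand had it on the minus strand. The genome itself is uneven in these bases: G makes up 13.1% of the plus strand sequence of GRCh37 chrM, and of all pairs of positions at which the motif could stand on either strand, 86.6% are on the minus strand. Since the listings of a pair share both ends, reads from a gene and from RNA of the opposite strand could not be told apart at these junctions.

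By reads, the plus share was 45.0% (95% Wilson interval 30.7 to 60.2) in irradiated B1 and 18.1% (10.9 to 28.5) in irradiated B2, while control A1 had 42.0% (39.5 to 44.5) and control A2 39.0% (36.3 to 41.8). B2 stood below the other 3 libraries, and B1 was the highest, so the groups overlapped (exact permutation p = 1). The irradiated mean was 31.5% ± 19.1 and the control mean 40.5% ± 2.09 (SD, n = 2 each). Without B2 the difference, irradiated minus control, changed sign to 4.50 percentage points.

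The host genes printed in the table do not follow the mitochondrial gene map. The category intronic was given to 100 junctions with 936 reads, all of them under the host JA760602 on the minus strand, although the mitochondrial genome has no introns. Sense overlapping was given to 255 and antisense to 23. The regions used here are therefore those of GENCODE. The listed hosts and categories were left aside, except for the category named in the comparison of spans.

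The comparison of irradiated with control exosomes asks which mitochondrial junctions irradiation of the donor cells changed. chrM junctions numbered 8 in irradiated B1 and 15 in irradiated B2, while control A1 had 274 and control A2 187. Their reads were 40 and 72 in B1 and B2, and 1453 and 1225 in A1 and A2. These reads are 0.264% (95% Wilson interval 0.194 to 0.359) of all junction reads in irradiated B1 and 1.25% (0.995 to 1.57) in irradiated B2, and 22.2% (21.2 to 23.2) in control A1 and 15.1% (14.4 to 15.9) in control A2. The means were 0.757% ± 0.698 in irradiated and 18.7% ± 4.998 in control libraries (SD, n = 2 each), with no overlap and an exact two-sided permutation p of 0.333, the smallest possible here.

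The contrast was also seen per mapped read. Irradiated libraries held 25.7-fold fewer chrM junction reads per mapped read than control libraries, with 0.457 (B1) and 0.810 (B2) per 1000000 mapped reads after irradiation and 19.5 (A1) and 13.7 (A2) in control. The mapped reads were taken from the study's own counts. The circRNA number given there for B2 does not match column B2, so the mapped reads given for B2 may belong to another library. Each value and fold per mapped read that uses B2, here and below, carries this doubt. All junction reads together numbered 15150 in B1, 5756 in B2, 6544 in A1 and 8094 in A2. Among reads of junctions not in circBase, the chrM share was 0.767% and 1.88% in B1 and B2, and 22.2% and 15.1% in A1 and A2.

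Most of what little was seen after irradiation was also seen in control. Of the 378 junctions, 360 had reads in control libraries alone, 16 in both groups and 2 in irradiated libraries alone. Junctions also seen in a control library held 35 of the 40 reads of B1 and 70 of the 72 of B2. The 2 others were chrM:6558-9641+, from MT-CO1 into MT-CO3, with 5 reads in B1, and chrM:2285-15403-, from MT-RNR2 into MT-CYB, with 2 reads in B2. Of the 18 junctions with an irradiated read, 9 had their lower end in MT-ND5 and 16 in a complex I gene.

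The control libraries shared a larger part of their chrM junctions than of their nuclear junctions not in circBase. Both A1 and A2 had reads of 85 chrM junctions, which is 31.0% of those of A1 and 45.5% of those of A2. For nuclear junctions not in circBase the same counts were 30 junctions, or 1.69% of those of A1 and 1.31% of those of A2. Junctions found in both control libraries held 59.1% of the chrM reads of A1 and 72.3% of those of A2. B1 and B2 shared 5 chrM junctions, and the same 5 were those found in all 4 libraries.

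Those 5 junctions all had their lower end at 14056 or 14068. chrM:14056-14377-, of 322 bases from MT-ND5 into MT-ND6, had 3 (B1) and 15 (B2) reads in irradiated libraries, and 30 (A1) and 130 (A2) in control libraries. chrM:14056-14377+ had 5 reads in each irradiated library, and 55 (A1) and 68 (A2) in control. chrM:14068-14413-, of 346 bases between the same genes, had 2 and 8 reads in B1 and B2, and 54 and 47 in A1 and A2. All 3 were lower in both irradiated libraries than in either control library. chrM:14068-14923-, of 856 bases, which spans MT-ND6 whole and ends in MT-CYB, had 8 and 7 reads in B1 and B2, and 29 and 57 in A1 and A2. chrM:14068-14446+, of 379 bases, had 2 and 3 in B1 and B2, and 14 and 9 in A1 and A2. In these too the groups did not overlap. In edgeR, however, none of the 5 had an unadjusted p under 0.05. Their p ran from 0.164 to 0.821 in that test, with log2 fold changes from -2.10 to -0.63. Control reads above irradiated reads in this way were found for 53.4% of the 118 chrM junctions tested and 3.88% of all junctions tested.

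The junction amplified by the primers above, chrM:14131-15754 of 1624 bases, was read in B2 but not in B1. Its minus listing had 0 and 5 reads in B1 and B2, and 98 and 44 in A1 and A2. Its plus listing had 0 and 1 in B1 and B2, and 66 and 27 in A1 and A2, so neither listing overlapped between the groups. Per mapped read the minus listing was 30.5-fold lower in irradiated libraries (95% counting interval 12.8 to 95.3), and the plus listing had a ratio of 99.8 (17.5 to 3985). Each ratio rests on the few reads of B2, and that of the plus listing, on 1 read, cannot be ranked beside the bounds given for junctions with no irradiated read.

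**Figure D5:**
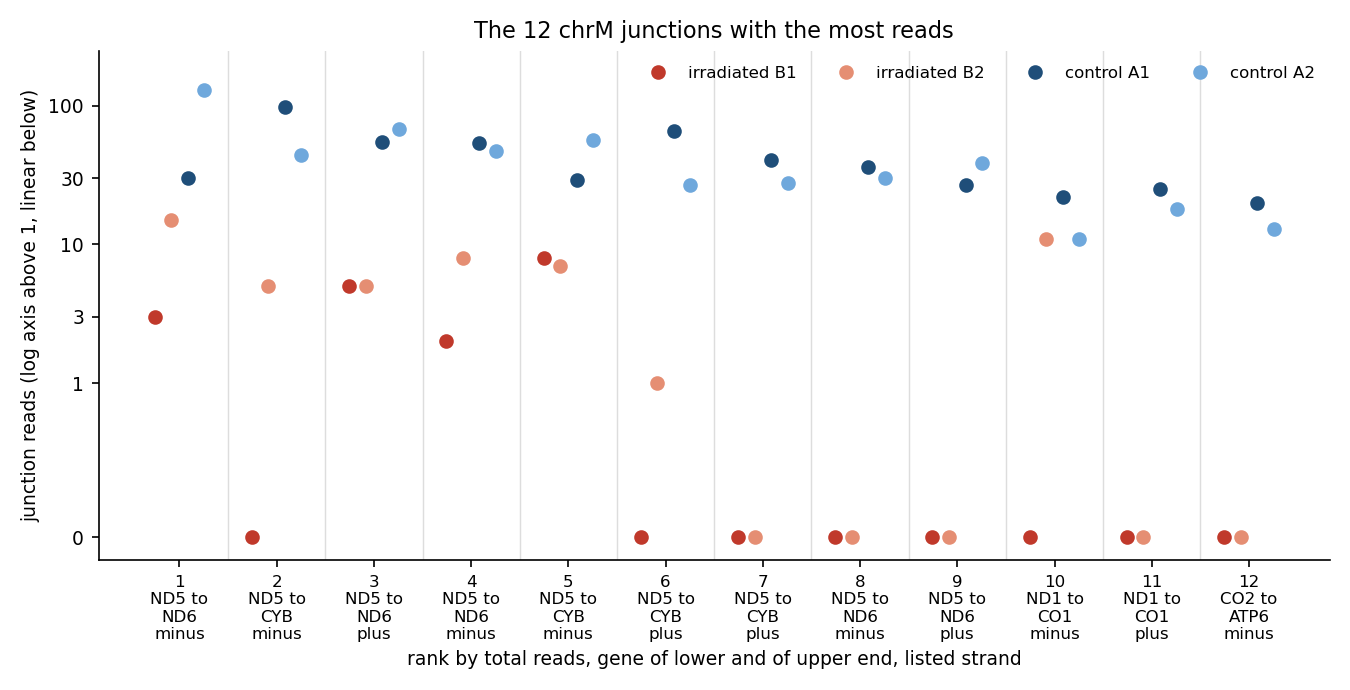
Junction reads in B1 and B2 (irradiated) and A1 and A2 (control) of the 12 chrM junctions with the most reads, named by rank, by the genes of the lower and the upper end, and by listed strand, on an axis that is logarithmic above 1 and linear below. In 11 of the 12 both irradiated libraries lie below both control libraries, and at rank 10 B2 and A2 have 11 reads each. The same order was found for 53.4% of the 118 chrM junctions tested and 3.88% of all 1957. Control libraries hold 2678 of the 2790 chrM reads, so a ranking by total reads favours junctions high in control.

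Other well-read junctions had no irradiated read. chrM:14068-14923+ had 41 and 28 reads in A1 and A2, chrM:14056-14263- had 36 and 30 there, and chrM:14068-14413+ had 27 and 39 there. Against a floor of 3 reads over both irradiated libraries they were at least 24.7-fold, 23.6-fold and 23.6-fold lower per mapped read. chrM:4198-6296+, from MT-ND1 into MT-CO1, had 25 and 18 control reads, and chrM:7749-8685-, from MT-CO2 into MT-ATP6, had 20 and 13. The minus listing chrM:4198-6296- differed from its partner, with 0 and 11 reads in B1 and B2 and 22 and 11 in A1 and A2. Its groups met at the 11 reads of B2 and A2.

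Some junctions were read mainly in one irradiated library. chrM:14530-14807-, from MT-ND6 into MT-CYB, was the best read chrM junction of B1, with 9 reads there, 0 in B2, 2 in A1 and 6 in A2. chrM:5169-6247+, from MT-ND2 into MT-CO1, had 6 in B1, 0 in B2, 5 in A1 and 11 in A2. For the first, the irradiated libraries lay on both sides of the controls, and for the second B1 lay between the controls and B2 below them.

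A test of single junctions used those with at least 5 reads over the 4 libraries, since fewer reads leave little to compare. On chrM 118 junctions passed, holding 74.3% of chrM reads, and 260 did not. They were fitted with edgeR's quasi-likelihood F test together with all 1957 junctions that passed. At a fold over 2 and unadjusted p under 0.05, 4 of the 118 fell in irradiated libraries, beside 0.204% of all junctions tested, and 0 rose, beside 3.53%. These 4 were chrM:14068-14923+, chrM:14056-14263-, chrM:14068-14413+ and chrM:14131-15754+, all with a lower end in MT-ND5, and each had an adjusted p = 0.549 in edgeR. After Benjamini-Hochberg adjustment over all 1957, 0 of the 118 passed in edgeR, with a smallest adjusted p of 0.549, beside 0.102% of all junctions tested. 4 of the 118 had an unadjusted p under 0.05, and DESeq2 called 0. The count changed when 1 library was left out, but those fits leave a group with 1 library, so only effect sizes are given. The median log2 fold change on chrM was -4.34 without B1, -4.52 without B2, -4.49 without A1 and -5.22 without A2. Over all junctions then tested it was -4.06, 5.92, 5.03 and 4.70.

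A junction with no irradiated read could pass the filter through its control reads alone, so counts over the 118 are given as a description. Of the 118, 102 had no irradiated read, and their fitted changes are no bound. The fitted change was negative for 113 of the 118, with a median log2 fold change of -4.15 (-5.36 to -4.02 under the other scalings), against 5.0 over all 1957 junctions tested. The value over all junctions rests on B1: without it the median over the 819 junctions then tested was -4.06, beside -4.34 on chrM. With the stricter filter of filterByExpr, which left 21 junctions, it was -1.37 over all and -5.95 on chrM. That scaling bears on the values, since the TMM factors, which edgeR computes to make libraries comparable, were 0.325 (B1) and 0.631 (B2) for irradiated and 2.30 (A1) and 2.12 (A2) for control libraries. Reads of both control libraries lay above those of both irradiated libraries for 63 of the 118 (53.4%), beside 3.88% of all junctions tested. A further limit on single tests was the estimated common dispersion of 4.18.

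The test was repeated on reads summed by region class of the lower end and by strand, which gave 16 chrM rows among 1855, with MT-ND6 apart from the rest of complex I. At the same thresholds 5 of the 16 fell, beside 0.270% of all rows, and 0 passed after adjustment (smallest adjusted p = 0.436 in edgeR), beside 0.108% of all rows. The number of sums passing after adjustment changed when B1 or B2 was left out, and each of these fits leaves a group with 1 library. Of the 5 that fell, 1 was complex I without MT-ND6 on the plus strand, with 13 and 10 reads in B1 and B2, and 487 and 374 in A1 and A2. On the minus strand the same genes had 13 and 57 reads in B1 and B2, and 629 and 573 in A1 and A2. Complex IV on the minus strand fell with 0 and 0 irradiated reads, and 49 and 30 control reads. Complex V fell on both strands, with no irradiated read, 38 and 27 control reads on the minus strand and 22 and 35 on the plus strand. These other 4 had an adjusted p = 0.532 in edgeR.

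The other 11 sums did not pass. They include complex III on the minus strand, with no irradiated read and 17 and 32 control reads, and rRNA on the minus strand, with 0 and 2 reads in B1 and B2 and 45 and 25 in A1 and A2, both with an adjusted p = 0.532 in edgeR. MT-ND6 had 9 and 0 irradiated and 43 and 54 control reads on the minus strand, on which it is encoded, and 0 and 3 irradiated and 18 and 26 control reads on the plus strand. In 15 of the 16 sums both control libraries lay above both irradiated libraries. The exception was tRNA on the minus strand, with 10 reads in A1 and 0 in the other libraries. This order largely repeats the totals, since chrM reads numbered 2678 in control and 112 in irradiated libraries. The share over all 1855 rows was not counted.

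Near copies of mitochondrial DNA lie in nuclear chromosomes, one of them on chromosome 1, where GENCODE lists 7 pseudogenes of mitochondrial genes (MTND1P23 to MTCO3P12) side by side. This stretch, chr1:564442-570302 in hg19, held 4 junctions with 9 reads, 0 in B1 and B2, 6 in A1 and 3 in A2. What share of chrM reads came from such copies was not tested.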

How the data were processed

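Per the labels and methods, the authors used cutadapt 1.9.3 for trimming, STAR 2.5.1b for alignment to hg19 and DCC to call junctions. The deposited count values are whole junction reads per circRNA and library, with no normalization. The deposited log2 values, CPM computed by the authors, were described but not used. The table lists 12571 circRNAs and 1 emptied line. 4 columns of per-library values (A3 and B3) match no sample and were not used. Column B2 was taken by its name for the second irradiated sample.

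Genes came from GENCODE v44lift37 (D-loop: before MT-TF and after MT-TP). Counts with a total of at least 5 were fitted in edgeR 4.0.16 (R 4.3.3, TMM, glmQLFit, quasi-likelihood F test, Benjamini-Hochberg over all rows). The code was also run on simulated counts, deeper and less dispersed than these data. That run does not show how the test behaves here. Exact permutation tests used scipy 1.17.1. Alternatives were other scaling, filters, DESeq2 1.42.0, strands merged, region borders and leaving out each library.

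Junctions named are the 12 with the most reads, those past the thresholds, the 3 with the most reads in each library, those in both irradiated libraries, the 3 longest and 3 shortest with at least 5 reads, and the 4 best read with a D-loop end. chrM:2285-15403- and chrM:6558-9641+, the 2 seen only in irradiated libraries, and the 8 most used lower ends (for a tie) were named after their values were seen. Members and lists were chosen with earlier results of these data known.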

Additional observations from a re-analysis of the deposited data

How the results depend on the processing

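The share of chrM reads kept its direction under every alternative tried, and the counts of calls did not keep theirs in size. The count of junctions lower in irradiated libraries, 4 in the reported fit, was 0 with RLE size factors, 24 with no scaling factors, 16 with mapped reads as library sizes, 9 with no filter, 9 with filterByExpr (21 junctions tested, 15 of them on chrM) and 0 in DESeq2, and 0 to 19 when 1 library was left out: 14 without B1, 19 without B2, 0 without A1 and 3 without A2. 0 were higher under each of these. At adjusted p under 0.05 the count on chrM was 7 with no scaling, 5 with mapped reads and 9 with filterByExpr. Region sums at adjusted p under 0.05 were 3 with no scaling, 2 with mapped reads and 2 with no filter. They were 1 with filterByExpr, 2 with strands merged and 1 by upper end. How many of all rows passed was counted for the reported fits alone, so these counts show nothing particular to chrM. A group left with 1 library is assumed to vary like the other, so no counts are given for fits with 1 library left out. The median log2 fold change over all junctions was 5.0 as reported, 5.81 with RLE, 3.69 with no scaling, 4.35 with mapped reads, 3.38 with no filter and -4.06 without B1. Fits with fewer rows adjust over fewer tests; otherwise the cause was not tested.

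The fit with the replicate number as a block gave 5 junctions lower and 0 at adjusted p under 0.05, and the deviations of same-numbered libraries correlated at 0.022, so the numbers were not taken to pair the libraries. A newer form of glmQLFit, added after the data were seen, gave 5 and 0, and the legacy form listed as an alternative is the reported fit. The plus strand difference, -8.97 percentage points (irradiated minus control), ran from -22.4 to 4.50 with 1 library left out. The complex I difference, 9.94 points, ran from 5.08 to 14.8 and was -5.70 by upper end; that of complex III was 5.05 by upper end and that of complex IV (1.88) was -4.37 without B1 and 8.13 without B2. The chrM share differed by -21.4 to -14.4 points with 1 library left out. The median span was 856 weighted by reads and 1181 to 1280 with 1 library left out, and the share listed on both strands 33.4% to 34.1%.

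Of 267 values of 24 named junctions under the alternatives, 207 kept direction and side of the p threshold, 13 no longer passed, 35 newly passed and 12 changed sign. chrM:4198-6296- (0.32) was -1.53 with no scaling, -1.73 with mapped reads, -0.19 with no filter, -1.10 with the replicate block, and -6.87 to 1.38 with 1 library left out (-6.87 without B2, -0.66 without A2). chrM:5169-6247+ (-0.48) was 0.77 with RLE, 0.78 in DESeq2 and -5.69 (without B1) to 0.39 (without B2) with 1 library left out. chrM:14530-14807- (1.05) was -1.55 with no scaling and -4.71 (without B1) to 1.95 (without B2) with 1 library left out, and chrM:14068-14446+ (-0.63) ran from -1.71 without B2 to 0.18 without A1. Depth limits what single junctions show: B1 and B2 hold 40 and 72 chrM reads.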

Other observations

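Nuclear genes of the respiratory chain and of mitochondrial upkeep gave more junction reads in irradiated than in control libraries. circRNAs in circBase were likewise more numerous there, with 2070 and 629 in B1 and B2, and 3 and 4 in A1 and A2. Nuclear junctions not in circBase did not separate the groups. Their reads were 5172 and 3753 in B1 and B2, and 5088 and 6865 in A1 and A2. Hosts whose symbols begin like subunits of complex I to V, such as NDUFS1, NDUFA10, COX5A and ATP5B, had 17 junctions over 15 hosts, with 53 and 23 reads in B1 and B2 (irradiated) and 2 and 6 in A1 and A2 (control). The match by symbol also takes in assembly factors (NDUFAF2, SDHAF2) and pseudogenes of SDHA. The junctions of SDHA, NDUFB6, NDUFB9 and NDUFAF2 had control reads alone. Hosts that keep mitochondrial RNA, DNA and ribosomes in working order, such as LRPPRC, which stabilizes mitochondrial messenger RNA, TFB2M, a transcription factor of mitochondria, and mitochondrial ribosomal proteins, had 17 junctions over 13 hosts, with 51 and 11 reads in B1 and B2 and 2 and 0 in A1 and A2. Of the 17 junctions of each list, 6 and 9 are in circBase. No test was run on these sums, so they show nothing particular to these hosts.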
